A study of Mus musculus with 9 samples.

Results

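The genes described here are 6 markers of macrophages, Lyz2, Lyz1, Cd68, C1qb, Fcgr3 and Ccl2, followed across the hearts of 2 transgenic mouse lines and their controls. They were chosen by name: every array probe whose code holds the mouse gene number of 1 of the 6 was taken, which gave 8 probes among the 46657 on the array and 6 of the 8102 genes that could be named. Lyz2 and Lyz1 have 2 probes each and the other genes 1. Each gene is described by its brightest probe, and these 6 were detected, that is brighter than background with a detection p under 0.05, on at least 3 of the 9 arrays and were tested. The second probes of Lyz2 and Lyz1 were too dim to pass that filter and are described beside the first.

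RNA from mouse hearts was measured on Illumina bead arrays, with 9 arrays in 3 groups of 3. K-line mice carry a transgene of a mutant membrane transport protein that stays active, N-line mice carry a transgene of the normal form of that protein, and control hearts carry the label control only. All groups share the FVB strain, the heart as tissue, the age of 14 days and the label male. The promoter of the transgenes and the number of founder animals are not given in the sources used here. Arrays are numbered within their group, but no label says whether every array is a different mouse. A p-value here therefore reflects how far arrays scatter within their groups, pooled over all groups, part of which may be technical.

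The K-line arrays went against their labels in 1 respect and stood apart in others. Xist, the RNA that silences an X chromosome in females, was detected on 3 of 3 K-line arrays at 10.47 to 11.13, on no N-line array at 4.94 to 5.10 and on no control array at 4.87 to 5.03, all on the log2 scale of normalized intensity used below. Kdm5d, a gene of the Y chromosome, was detected on 0 K-line arrays at 4.47 to 4.59, on 3 N-line arrays at 7.29 to 7.43 and on 3 control arrays at 7.16 to 7.66. Myl7, the atrial myosin light chain, was at 4.90 to 8.44 on the K-line arrays, at 13.57 to 13.68 on the N-line arrays and at 13.38 to 13.57 on the control arrays. The 3 K-line arrays also share a chip number that no other array carries, and N-line and control share another. These numbers are read here as slides. The raw K-line intensities were also deposited apart from the others, under a different date, and what that date stands for is not given. In every K-line difference below, line, slide, deposit date, the sex shown by these genes and the level of this atrial gene cannot be told apart. No value without these arrays can be given. Detection was alike in all arrays, with 17937 to 19021 probes detected on each.

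Macrophages live in the healthy heart, where they clear dying cells and debris, and further ones arise after injury or strain from blood monocytes. Lysozyme, the product of Lyz2 and Lyz1, cuts the cell wall of bacteria; CD68 is a glycoprotein of lysosomes and endosomes; C1q, of which C1qb encodes a chain, starts the classical complement cascade and tags dying cells. Fcgr3 encodes an activating receptor for the constant part of IgG, and Ccl2 a chemokine that draws monocytes carrying the receptor CCR2 out of the blood. Ccl2 differs from the other 5 genes in that endothelial cells, fibroblasts and heart muscle cells can also make it.

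All 6 genes rose in K-line hearts against control hearts, by 1.49 to 2.89 on the log2 scale, that is 2.81-fold to 7.39-fold. Lyz2 had the largest difference of the 6, also under 18 of 19 other ways of processing, the exception being the average over its 2 probes. Averaging the tested probes alone, counted among the 19, could not change the 6, since the second lysozyme probes were not tested. The order of the other 5 turned with the background: with an offset of 50 in place of 16 the differences were 1.46 for C1qb, 1.42 for Fcgr3, 1.36 for Ccl2, 1.25 for Cd68 and 1.07 for Lyz1. None of the 6 passed the test in N-line hearts, where the differences from control lay between -0.28 and 0.33. K-line hearts were also higher than N-line hearts in all 6, by 1.51 to 2.56. In whole tissue, more macrophages and more of these RNAs per cell cannot be told apart.

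The promoters of the lysozyme genes, of Cd68, of C1qb and of Fcgr3 are shown because these genes all rose in K-line hearts. RefSeq annotation of mouse build GRCm38.p6 gave 5 of the 6 genes, not Ccl2. Each sequence is the 250 bases before the first transcribed base, on the strand of the gene, 5′ to 3′, and for Fcgr3 it is the first of 2 start sites. Capitals mark matches to AGGAAG or its complement, the core bound by PU.1, a transcription factor that macrophages depend on, and to TGANTCA, the site of AP-1. TATAAA was also searched, all 3 on both strands, and no match overlapped another.
Lyz2 promoter, chr10:117282273-117282522, minus strand: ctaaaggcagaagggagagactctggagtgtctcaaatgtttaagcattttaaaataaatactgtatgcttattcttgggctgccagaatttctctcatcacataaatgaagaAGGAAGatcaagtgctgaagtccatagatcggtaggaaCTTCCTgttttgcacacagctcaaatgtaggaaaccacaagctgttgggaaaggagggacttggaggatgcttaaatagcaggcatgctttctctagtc
Lyz1 promoter, chr10:117292869-117293118, minus strand: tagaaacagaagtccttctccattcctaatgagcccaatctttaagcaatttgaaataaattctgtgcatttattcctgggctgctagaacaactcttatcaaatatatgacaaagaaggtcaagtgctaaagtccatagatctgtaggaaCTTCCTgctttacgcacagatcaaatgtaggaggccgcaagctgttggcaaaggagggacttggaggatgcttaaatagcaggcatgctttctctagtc
Cd68 promoter, chr11:69666171-69666420, minus strand: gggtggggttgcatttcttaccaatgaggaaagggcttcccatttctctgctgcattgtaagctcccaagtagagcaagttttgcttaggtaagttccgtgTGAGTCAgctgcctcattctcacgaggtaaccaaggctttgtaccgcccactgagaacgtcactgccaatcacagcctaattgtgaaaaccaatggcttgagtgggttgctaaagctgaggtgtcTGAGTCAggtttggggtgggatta
C1qb promoter, chr4:136886201-136886450, minus strand: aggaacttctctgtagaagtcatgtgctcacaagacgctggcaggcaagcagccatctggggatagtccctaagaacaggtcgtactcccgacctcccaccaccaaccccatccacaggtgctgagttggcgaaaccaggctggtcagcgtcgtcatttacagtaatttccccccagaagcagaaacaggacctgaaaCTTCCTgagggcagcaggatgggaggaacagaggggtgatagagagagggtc
Fcgr3 promoter, chr1:171059404-171059653, minus strand: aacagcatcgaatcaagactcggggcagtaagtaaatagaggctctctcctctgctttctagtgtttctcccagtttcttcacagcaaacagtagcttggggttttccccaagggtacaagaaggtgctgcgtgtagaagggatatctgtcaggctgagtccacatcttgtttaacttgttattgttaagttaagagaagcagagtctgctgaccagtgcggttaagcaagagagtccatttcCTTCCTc

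The PU.1 core stood in 4 of these 5 promoters. With the first transcribed base counted as 0, it lay from -137 to -132 and again from -99 to -94 in Lyz2, from -99 to -94 in Lyz1, from -52 to -47 in C1qb and from -7 to -2 in Fcgr3. Cd68 had no such match but had TGAGTCA from -149 to -143 and from -24 to -18. TATAAA was in none of the 5. Among 32851 mouse promoter windows of the same length, 29.5% held the PU.1 core, 6.75% the AP-1 site and 12.4% TATAAA, so a match of the PU.1 core is common, and it is a description of letters and not of binding. The Lyz2 and Lyz1 windows were identical at 200 of 252 aligned columns (79.4%), while the other pairs ranged from 39.3% to 43.6%. No protein-coding gene lies between Lyz2 and Lyz1 in the annotation, on chromosome 10.

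Lyz2, the lysozyme gene of macrophages and other myeloid cells, was the gene of the 6 that moved most. Its level was 10.63, 11.96 and 11.55 on K-line arrays 3, 5 and 6, against 8.72, 8.96 and 8.78 on N-line arrays 2, 3 and 4 and 8.53, 8.26 and 8.69 on control arrays 1, 2 and 3. Every K-line array was above every other array, and the lowest N-line value lay just above the highest control value. As deposited, before any correction, the intensities were 1562.7 to 4914.8 in K-line, 394.6 to 485.2 in N-line and 315.3 to 441.1 in control. K-line exceeded control by 2.89 (SE 0.26, 95% interval 2.304 to 3.47, n = 3 each), 7.39-fold, with an adjusted p of 4.13e-05 by limma with Benjamini-Hochberg adjustment over 19692 probes, and the rise had rank 12 among those probes. The rise over N-line was 2.56 (SE 0.26, limma adjusted p 9.33e-05).

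Lyz1, the lysozyme gene best known from Paneth cells of the gut, was dimmer and more scattered. It was at 6.22, 7.72 and 6.99 on the K-line arrays, at 4.84, 4.91 and 5.44 on the N-line arrays and at 4.83, 6.50 and 4.68 on the control arrays. It was detected on 3 K-line arrays but on only 1 N-line and 1 control array, and that control array, number 2, lay above the lowest K-line array, so the K-line and control groups overlap. K-line exceeded control by 1.64 (SE 0.46, 95% interval 0.62 to 2.65, limma adjusted p 0.0254, n = 3 each), and N-line by 1.91 (SE 0.46, adjusted p 0.0126), which was 1.26 with an offset of 50. The call against control was lost in 6 of 19 other ways of processing, among which averaging the tested probes alone could not change it. The difference became 1.38 without control 1 (adjusted p 0.0884), 1.31 without control 3 (0.0929), 1.24 without K-line 5 (0.0846) and 1.63 without K-line 6 (0.0688). It was 2.23 without control 2, 2.01 without K-line 3 and 2.24 in the authors' deposited values, with the call kept, and over all 19 the adjusted p ran between 0.00252 and 0.313.

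The second probes of the lysozyme genes moved less. That of Lyz2 was detected on 1 of 9 arrays, at 4.66, 5.17 and 4.95 in K-line, 4.62, 4.66 and 4.81 in N-line and 4.63, 4.55 and 4.59 in control, and that of Lyz1 on 2 of 9 arrays, at 4.85, 5.89 and 5.11 in K-line, 4.74, 4.58 and 4.75 in N-line and 5.17, 4.76 and 4.57 in control. Control 2, high on the first Lyz1 probe, was not high on the second. With no filter on dim probes, K-line minus control was 0.33 (SE 0.12, limma adjusted p 0.130) for the second Lyz2 probe and 0.45 (SE 0.25, adjusted p 0.383) for the second Lyz1 probe. Averaging each gene's probes made the difference from control 1.61 for Lyz2 and 1.04 for Lyz1, and that from N-line 1.39 for Lyz2 and 1.25 for Lyz1. Lyz2 and Lyz1 are near-identical copies, probe sequences were not used here, and whether a probe of one binds RNA of the other was not tested.

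Cd68 stood at 7.14, 7.25 and 6.94 on the K-line arrays, against 4.64, 5.40 and 4.996 on the N-line arrays and 5.41, 5.35 and 5.01 on the control arrays. The K-line arrays lay close together and well above the rest. Its probe was detected on 3 K-line, 1 N-line and 2 control arrays, so outside the K-line it sat near background. K-line exceeded control by 1.85 (SE 0.18, 95% interval 1.45 to 2.25, limma adjusted p 6.26e-05) and N-line by 2.10 (SE 0.18, adjusted p 2.77e-05). With the probe so near background the size depends on the processing: with an offset of 50 the differences were 1.25 over control and 1.37 over N-line, and in the authors' deposited values 2.22 and 2.72. With the replicate number as a block they were 1.86 and 2.01 and missed the test, in a fit where K-line rests on K-line 3 alone.

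C1qb and Fcgr3 were detected on all 9 arrays. C1qb was at 9.95, 10.34 and 10.48 in K-line, 8.81, 8.68 and 8.47 in N-line and 8.78, 8.74 and 8.67 in control. Fcgr3 was at 9.76, 10.33 and 10.27 in K-line, 8.64, 8.58 and 8.61 in N-line and 8.65, 8.62 and 8.61 in control. For both genes the 6 arrays of the other groups intermingled and the 3 K-line arrays lay apart above them. C1qb exceeded control by 1.53 (SE 0.14, 95% interval 1.22 to 1.84, limma adjusted p 4.05e-05) and N-line by 1.60 (SE 0.14, adjusted p 2.80e-05). Fcgr3 exceeded control by 1.49 (SE 0.14, 95% interval 1.19 to 1.79, limma adjusted p 4.13e-05) and N-line by 1.51 (SE 0.14, adjusted p 3.92e-05). Fcgr3 has close relatives among the Fc gamma receptor genes, and binding of its probe to their RNA was not tested.

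Ccl2, the monocyte-attracting chemokine, was at 7.43, 7.48 and 7.04 on the K-line arrays, 5.38, 5.56 and 5.52 on the N-line arrays and 5.04, 5.67 and 5.35 on the control arrays. It was detected on 3 K-line, 3 N-line and 2 control arrays, and the N-line values fell within the range of the control values. K-line exceeded control by 1.96 (SE 0.16, 95% interval 1.60 to 2.32), with a limma adjusted p of 2.15e-05, and exceeded N-line by 1.83 (SE 0.16, adjusted p 3.54e-05).

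**Figure D1:**
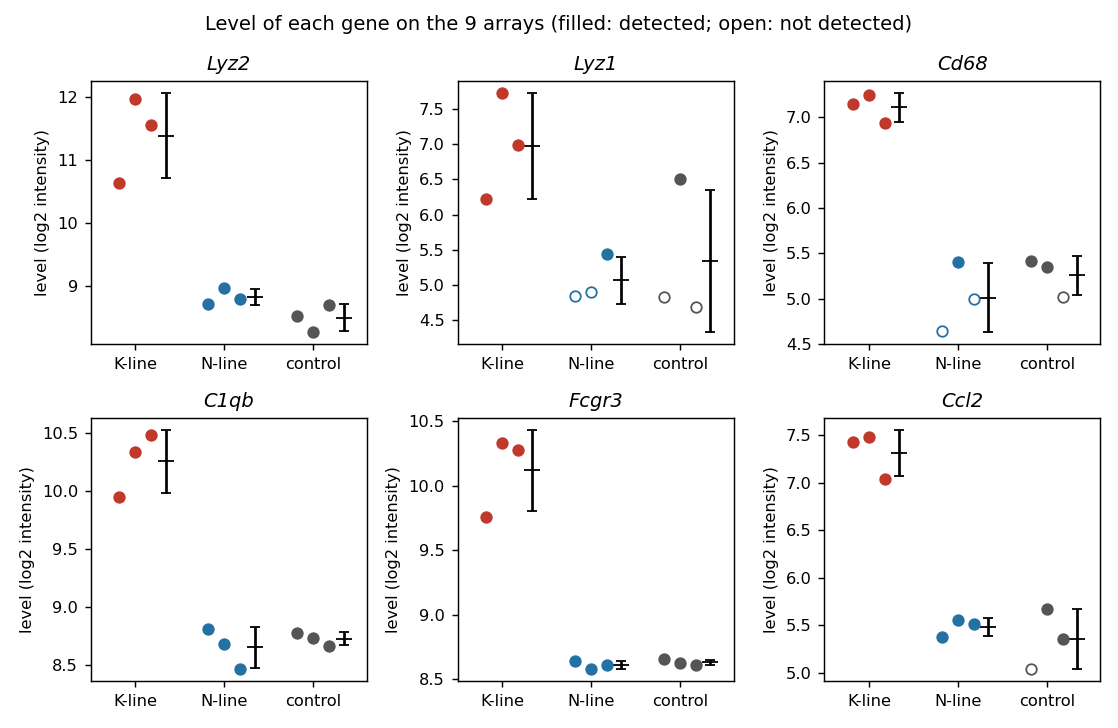
Normalized log2 intensity of the brightest probe of each of the 6 genes, with 1 point per array, filled where the probe was detected and open where it was not, and a bar for mean ± SD over 3 arrays; the vertical scale differs between genes. The K-line arrays lie above all others in each gene except Lyz1, where control 2 at 6.50 lies above K-line 3 at 6.22.

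Among the 3 K-line arrays the genes did not keep 1 order. K-line 5 was highest for 5 of the 6 and K-line 6 for C1qb, while K-line 3 was lowest for 4 and K-line 6 for Cd68 and Ccl2. The distance from the lowest to the highest K-line array was 1.32 for Lyz2 and 1.50 for Lyz1 on the log2 scale, but 0.31 for Cd68, 0.44 for Ccl2, 0.53 for C1qb and 0.57 for Fcgr3, so both lysozyme genes varied more between these arrays than the other 4. The standard error of the mean over the beads of a probe was 2.75% to 16.3% of the intensity, from 13 to 51 beads.

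Set against the whole array, 6 of 6 genes rose in K-line hearts, where 12.0% of the 19692 tested probes rose and 24.3% passed the test in either direction. Lyz1 passed the detection filter only through the K-line arrays, where it is high, and with no filter 5 of 6 were called. The other 5 genes passed it through the N-line and control arrays alone, as did 18717 probes, of which 11.1% rose. The median difference of the 6 was 1.74, against -0.01 over all tested probes, and their ranks from the top ran from 12 for Lyz2 to 118 for Fcgr3. The K-line and control arrays did not overlap for 5 of the 6 genes, against 40.6% of all tested probes. The scaling of the arrays bears on the background and not on these calls. Of the probes called in this comparison 49.2% were higher in K-line after quantile normalization, 70.5% after median scaling and 84.1% in the authors' deposited values, in which the median of all probes moved by 0.20. The median of the 6 genes was 2.23 in those deposited values, before that shift is taken off, and 1.88 after median scaling, and all 6 were called in both.

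K-line against N-line sets the line with the active mutant against the line with the normal form. Slide, deposit date, the sex genes and Myl7 differ between these lines as well. The count was the same, with 6 of 6 higher, against 12.1% of tested probes higher and 24.2% called in either direction. Without Lyz1 it was 5 of 5, against 11.2% of the probes that passed the filter without the K-line arrays. The median difference of the 6 was 1.87, against -0.01 over all probes. The groups did not overlap for any of the 6, against 39.5% of all tested probes.

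N-line against control shares its control arrays with the first comparison and asks what the normal form does. By limma with Benjamini-Hochberg adjustment 0 of the 6 genes were called, against 0.929% of tested probes, and 0 of the 6 had an unadjusted p under 0.05, against 11.8% of tested probes. Lyz2 was 0.33 higher in N-line (SE 0.26, 95% interval -0.26 to 0.91, adjusted p 0.724) and Ccl2 0.13 higher (SE 0.16, interval -0.23 to 0.49, adjusted p 0.847). The N-line minus control difference was -0.28 for Lyz1 (interval -1.29 to 0.74), -0.25 for Cd68 (-0.64 to 0.15), -0.07 for C1qb (-0.38 to 0.23) and -0.02 for Fcgr3 (-0.32 to 0.28). Lyz2 was the 1 gene of the 6 whose N-line and control arrays did not overlap, which held for 19.7% of all tested probes. These intervals do not show that the levels were alike: they leave room for changes of up to 0.91 in Lyz2, 0.38 in C1qb and 0.32 in Fcgr3. Their widths rest on a spread pooled over all groups, the K-line arrays included. The SD of Lyz2 was 0.68 in K-line, 0.13 in N-line and 0.22 in control, and that of Fcgr3 0.32, 0.03 and 0.02. In a fit of N-line and control alone the Lyz2 difference was 0.33, with a limma adjusted p of 0.264.

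**Figure D2:**
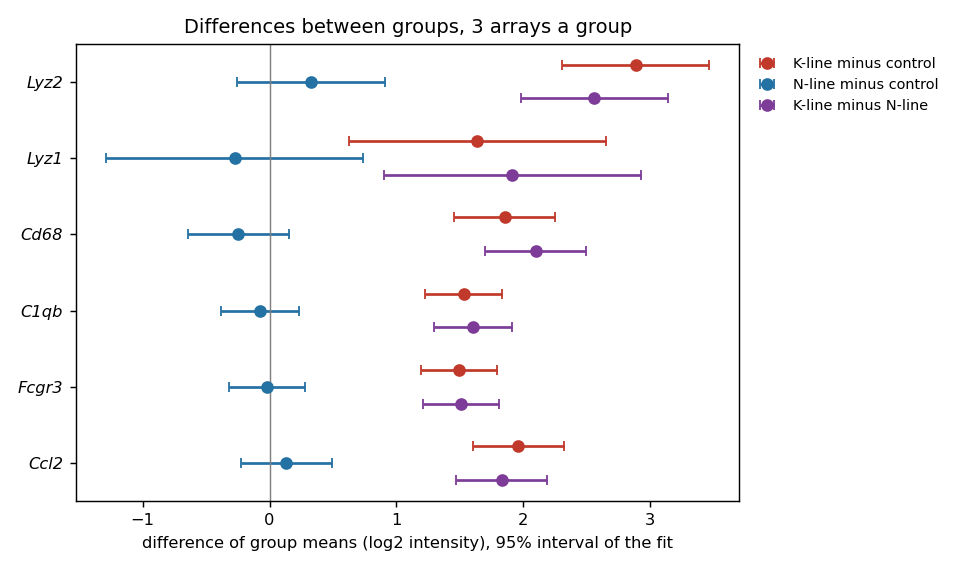
Differences of group means of the 6 genes on the log2 scale, with 95% intervals from the limma fit, for K-line minus control, K-line minus N-line and N-line minus control. Every interval of the K-line comparisons lies above 0, with the lowest bound at 0.62 for Lyz1 against control, and every N-line minus control interval includes 0.

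**Figure D3:**
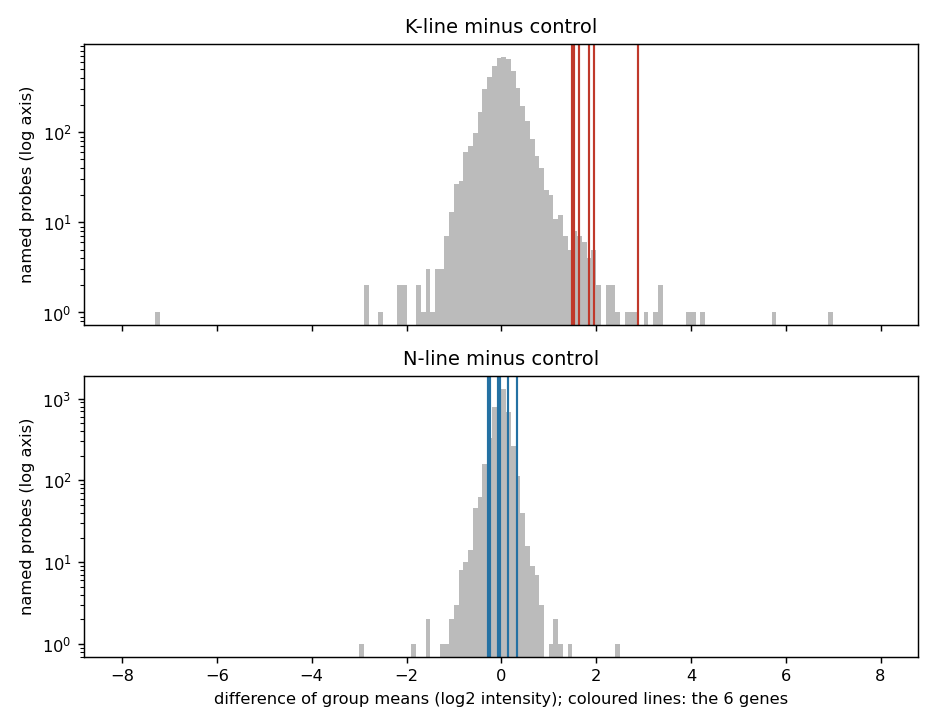
Histograms of the log2 differences of the tested named probes for K-line minus control (upper panel) and N-line minus control (lower panel), with the number of probes on a log axis and the 6 genes as vertical lines. In K-line minus control the lines, from 1.49 to 2.89, stand in the upper tail, and in N-line minus control, from -0.28 to 0.33, they stand in the body of the histogram.

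Some of the other genes tied to macrophages also rose in K-line hearts. From 7 lists on resident macrophages, inflammatory monocytes, phagocytes in general, Fc gamma receptors, complement, CC chemokines and macrophage growth factors, 99 genes other than the 6 were considered. Of these, 27 had a named probe, 8 of the 27 were detected on no array, and 15 were bright enough to test. Each of the 15 is described by its brightest tested probe. Ptprc and Vcan have 2 named probes each and Csf3r, C1s1 and C4b 3 each, and their other probes are not reported here. Of the 15, Ptprc, C3ar1, Csf3r and Ccl25 passed the filter only through the K-line arrays and are left out of the counts in this paragraph. They are marked where they are described below. In K-line against control 6 of the other 11 rose, 0 fell and the median was 0.50, beside the 11.1% of probes that rose among those passing without the K-line arrays. In N-line against control 0 of these 11 passed the limma test after adjustment, against 0.929% of all tested probes. An unadjusted p under 0.05 was found for 1 of the 11, against 11.8% of all tested probes, and the median was -0.10. Both counts lie near those shares. K-line against N-line gave 6 higher and 0 lower, against 11.2%.

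The resident macrophage list is measured thinly, with 5 of 19 genes named. Adgre1, Mrc1, Cd163, Lyve1, Folr2 and Timd4 are among those without a named probe. The list had 4 tested genes beside C1qb, of which 3 rose, against 11.1% of the probes passing the filter without the K-line arrays. C1qa, another chain of C1q and separated from C1qb by 1 protein-coding gene, was at 9.06 to 9.71 in K-line, 7.81 to 8.02 in N-line and 7.97 to 8.06 in control, a rise of 1.46 over control (limma adjusted p 1.05e-04). Csf1r, the receptor for the growth factor that macrophages need to survive, was at 8.95 to 9.43 in K-line, 7.92 to 7.99 in N-line and 7.63 to 8.08 in control, a rise of 1.37 (adjusted p 8.73e-05). Mertk, a receptor for engulfing dying cells, rose by 0.57 (adjusted p 0.0278). The transcription factor gene Maf was 0.41 higher and was not called (adjusted p 0.0973).

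Of the phagocyte list other than Lyz2 and Cd68, Cebpb and Ptprc were tested, and Ptprc passed the filter only through the K-line arrays. The list had 21 genes, 7 of them with a named probe. Itgam, Msr1 and Cybb had a probe too dim to test. Itgam and Msr1 were detected on no array, and Cybb on 1 control array and on no K-line array. Ptprc, the leukocyte antigen CD45, was detected on no control array and was at 5.94 to 6.41 in K-line. It was at least 1.99-fold higher in K-line than in control (limma adjusted p 6.69e-04). Cebpb, a transcription factor of myeloid and many other cells, rose by 0.87 over control (adjusted p 4.01e-04), while N-line lay 0.45 below control without passing the test (adjusted p 0.100).

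Of the Fc gamma receptor genes, Fcgr2b, the inhibitory receptor, was the other 1 with a tested probe. It was at 7.91 to 8.53 in K-line, 6.44 to 6.69 in N-line and 6.49 to 6.94 in control, a rise of 1.60 (limma adjusted p 1.05e-04) beside the 1.49 of the activating receptor gene Fcgr3. In the complement list C1qa rose, as did C3ar1, the receptor for the C3a fragment, which passed the filter only through the K-line arrays. C3ar1 was detected on no control array and was at least 1.75-fold higher in K-line (limma adjusted p 0.00107). The complement protease gene C1s1 and the complement component gene C4b were at -0.05 and -0.08 in K-line minus control and were not called.

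Ccl2 was 1 of 4 CC chemokine genes with a tested probe. Of the 3 others, 0 were called in K-line against control by limma after adjustment, where 24.3% of all tested probes were called in either direction. So few genes are too few to set against that share. Among these 3, 1 had an unadjusted p under 0.05, a share not reported here over all probes. Ccl25 among them passed the filter only through the K-line arrays. Ccl21a, which guides lymphocytes, differed by 0.35 (adjusted p 0.180), Ccl25 by 0.02 (0.917) and Ccl27a by -0.40 (0.0817). The inflammatory monocyte list is measured thinly as well, with 5 of 15 genes named and 2 tested, Ccl2 and the matrix proteoglycan gene Vcan. Vcan rose by 0.50 (limma adjusted p 0.0195), and fibroblasts also express it. The genes Ptgs2 and Cxcl2 of this list were detected on no array. Chil3 was detected on 2 N-line arrays, at 5.07 to 5.19 in that group, and on no K-line array, at 4.64 to 4.83, or control array, at 4.99 to 5.17.

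The growth factor receptor gene Csf3r, for the cytokine that drives neutrophils, also rose but passed the filter only through the K-line arrays. It was at 5.42 to 5.94 in K-line, at 4.94 to 5.26 in N-line and, detected on no array, at 4.75 to 4.87 in control. The K-line level was at least 1.40-fold higher than in control (limma adjusted p 0.00185).

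**Figure D4:**
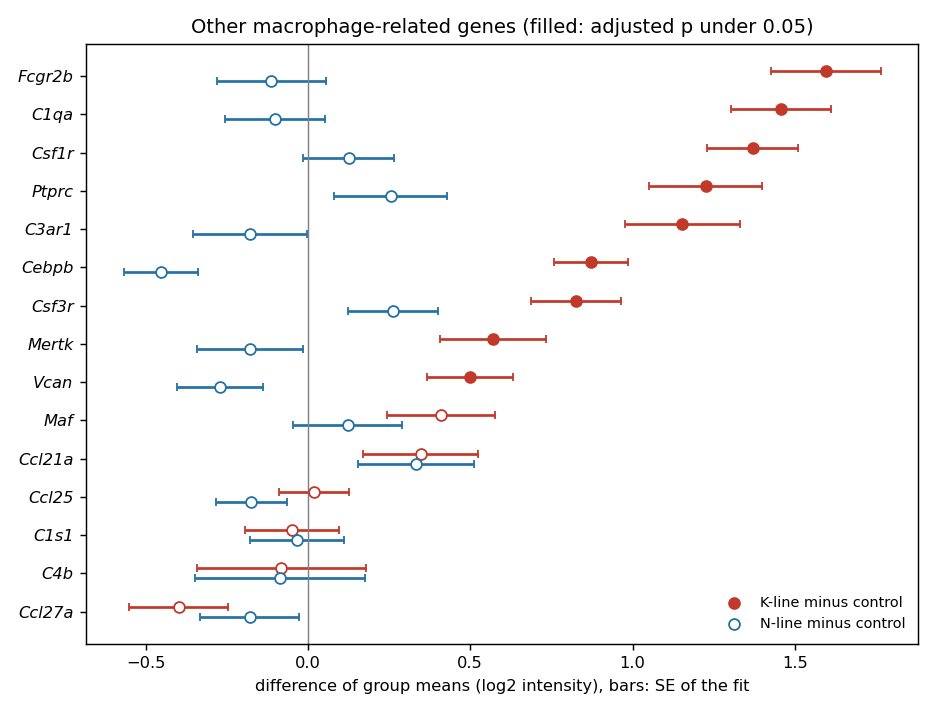
Differences on the log2 scale for the 15 tested macrophage-related genes other than the 6, for K-line minus control and N-line minus control, with bars for the SE of the limma fit, filled where the difference was called and open where it was not. In K-line the called genes run from 0.50 for Vcan to 1.60 for Fcgr2b, and no N-line difference was called. Ptprc, C3ar1, Csf3r and Ccl25 passed the filter only through the K-line arrays.

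Markers of other cell types were set beside the 6 genes. S100a9, of neutrophils and monocytes and the 1 tested gene of the neutrophil list, was at 5.71 to 6.57 in K-line, 5.38 to 6.11 in N-line and 5.57 to 5.89 in control, a K-line minus control difference of 0.30 (limma adjusted p 0.391), and 4 of the 6 neutrophil genes with a probe were detected on no array. Cd3e of T cells differed by 0.06 (adjusted p 0.793), Cma1 of mast cells by 0.09 (0.752) and Zbtb46 of dendritic cells by -0.11 (0.604). Cd72, listed for B cells and also carried by macrophages, was detected on no N-line or control array and was at 7.69 to 8.19 in K-line. It passed the filter only through the K-line arrays, where it was at least 7.29-fold higher than in control (limma adjusted p 2.86e-07). The lists for natural killer cells and for lung and Paneth cells had 0 named probes.

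Lists for the main cell types of heart tissue gave calls in both directions. Over all tested probes 12.0% rose in K-line against control and 24.3% were called in either direction. Of 5 endothelial genes 0 rose and 2 fell in K-line against control, and of 7 fibroblast genes Postn, a matricellular gene, rose by 1.07 and Fbln1 fell by 0.62. Of 5 heart muscle genes Myh7 rose by 1.77 and Mybpc3 by 0.34, and Ryr2 fell by 0.57. Summed on the linear scale, the 6 macrophage genes reached 3834.8 to 7097.7 per array in K-line, 1307.4 to 1410.8 in N-line and 1310.8 to 1314.7 in control. Lyz2, C1qb and Fcgr3, the brightest of the 6, carry most of that sum, and in K-line Lyz2 has the largest part. The 5 endothelial genes summed to 16304.8 to 17109.2 in K-line, 18902 to 19310.1 in N-line and 18791 to 20052.7 in control. The part of changed cell shares in the rise of the 6 genes was not tested.

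Over the 9 arrays the Pearson r between the 6 genes ran from 0.805 for Lyz2 with Lyz1 to 0.991 for C1qb with Fcgr3. Each r is a description over 9 points, and within a group the points share a line and a slide. The gap between the K-line and the other arrays by itself makes r high for genes that rose in K-line. No r was computed with the group means removed, so these values do not show that genes vary together within a group. Among 4610 other tested genes, C1qb and Fcgr3 were most like C1qa (0.996 each), followed by Dpep2 (0.990) and the lectin gene Clec4d (0.989) for C1qb and by Clec4d (0.993) for Fcgr3. Lyz2 was most like Clec5a, a lectin receptor of myeloid cells (0.994), Tmem205 (0.987) and Uap1l1 (0.987). Their K-line minus control differences were 2.28 for Dpep2, 1.71 for Clec4d, 1.32 for Clec5a, 1.01 for Tmem205 and 0.92 for Uap1l1.

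Cd68 was most like Syngr2 (0.980), Tlr13, a receptor for bacterial RNA (0.978), and the glycolytic enzyme gene Gpi1 (0.978). Lyz1 had the loosest neighbours, Sdc1 (0.962), Diaph1 (0.943) and Yipf6 (0.938), of which Sdc1 differed by 0.36 in K-line minus control and was not called (limma adjusted p 0.0793). Ccl2 was most like Eif4a1 (0.986), Xist (0.981) and the receptor kinase gene Alk (0.980). Xist, the RNA of the female X, differed by 5.78 between K-line and control.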

How the data were processed

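Heart RNA on 9 Illumina mouse arrays was analysed, 3 each of K-line, N-line and control. The deposited probe intensity is a mean over beads, written out by BeadStudio 2.3.47 with normalization off, per the file headers. The detection score that the authors deposited is a fraction between 0 and 1, and 1 minus this score served as detection p-value. The authors' value table, an intensity after background subtraction, served as an alternative, made by a method that these sources leave unstated.

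Background was corrected with normexp in limma 3.58.1 (R 4.3.3), with an offset of 16, followed by quantile normalization of all arrays and log2. Probes with detection p under 0.05 on at least 3 arrays were tested (19692) in 1 limma model of 3 group means, with lmFit and eBayes, and p-values were adjusted by the Benjamini-Hochberg method at 0.05. The model was tested on simulated data. "At least N-fold" is a bound for probes detected on no array of a group, whose arrays were then set no lower than the dimmest detected probe. At most 327 of 46657 raw values were identical between 2 arrays, and each array counts as 1 sample. Array number limits the precision.

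Codes with 1 or 2 leading zeros were read as mouse gene numbers, inferred because 9796 of 11857 (82.6%) are in RefSeq's table of GRCm38.p6, and 4616 genes had a tested named probe. The genes named are the 6 chosen ones, those of the macrophage-related lists, up to 4 a list by size among calls and any a count turns on, the 3 tested genes nearest to each by Pearson r, and checks of sex, atrium and other cell types. The genes and lists were chosen with earlier results of these data known. Alternatives were the scaling, the authors' values, background, offset, filter, groups fitted, replicate block, probe averaging and each array left out. Transgene levels and some listed genes are not reported here.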

Additional observations from a re-analysis of the deposited data

How the results depend on the processing

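Under 19 alternatives Lyz2, C1qb, Fcgr3 and Ccl2 kept their call and direction in both K-line comparisons, with limma adjusted p of at most 0.0287. Averaging the tested probes alone, counted among the 19, could not change the 6 genes. With the replicate block Lyz2 differed by 1.99 from control and 1.63 from N-line, against 2.89 and 2.56. Lyz1 lost its K-line minus control call without control 1, control 3, K-line 5 or K-line 6, without the filter on dim probes (adjusted p 0.103) and with the replicate block (0.313), and its K-line minus N-line call in the last 2 (0.0621 and 0.158). Same-numbered arrays share only a number: their deviations correlated at -0.05 to 0.22, and K-line shares number 3 alone. K-line 5 and K-line 6 share their numbers with no other array, so with the block every K-line difference rests on K-line 3 alone. Control 1 and N-line 4 likewise have a block to themselves. Calls lost with the block cannot be told apart from the loss of these arrays. With the replicate block, 4 of the 6 genes were called in each K-line comparison, Cd68 and Lyz1 being lost. Of the 15 related genes tested, 5 were higher with the block in each K-line comparison, against 9. Genes that passed the filter only through the K-line arrays are included in these counts. Probes called numbered 554 in K-line minus control with the block, against 4795, 441 in K-line minus N-line, against 4774, and 16 in N-line minus control, against 183. Median scaling gave 109 and a fit of the 2 groups alone 354 in N-line minus control. Leaving out each array gave 3313 to 4600 probes in K-line minus control, 3036 (without N-line 2) to 4620 in K-line minus N-line and 25 (without N-line 4) to 302 (without K-line 5) in N-line minus control, and the cause was not tested. Uncalled N-line minus control differences changed sign for C1qb (0.0424) and Ccl2 (-0.0430) with the block, and with 1 array left out, where Ccl2 ran between -0.0265 (without control 1) and 0.29, Lyz1 between -0.61 and 0.31 (without control 2) and C1qb between -0.15 and 0.0175 (without N-line 4). Under the fit of the 2 groups alone Lyz1 was not tested in N-line minus control. Signal near background limits Lyz1, Cd68 and Ccl2 outside the K-line.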

Other observations

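Segments of antigen receptor genes, which the array codes name, were counted as signs of lymphocytes. Of 142 immunoglobulin heavy chain probes, 4 to 5 were detected per array in K-line, 3 to 6 in N-line and 4 to 5 in control. Of 146 immunoglobulin kappa probes, 7 to 14 were detected in K-line, 6 to 16 in N-line and 5 to 11 in control. Of 51 T cell receptor probes, 2 were detected on each K-line array and 2 to 3 per array in N-line and in control. Among the 6 heavy chain, 12 kappa and 2 lambda probes bright enough to test, 0 were called in K-line minus control by limma. Over all tested probes 24.3% were called in either direction. None of these heavy chain, kappa and lambda probes had an unadjusted p under 0.05, a share not reported here over all probes. Of the 3 T cell receptor probes 0 rose and 1 fell.

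Ltf, the iron-binding lactoferrin of neutrophil granules and of secretions, was singled out after its values were seen. On N-line 4 it was at 8.89 (47 beads), against 4.83 and 4.78 on N-line 2 and 3, 4.62 to 4.74 on the K-line arrays and 4.75 to 4.78 on the control arrays, none of which detected it.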
